A study of Mus musculus with 11 samples.

Results

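The genes described here are the 4 adult globin genes of the mouse, Hba-a1, Hba-a2, Hbb-bs and Hbb-bt, and Alas2, the red cell gene for the first step of heme synthesis, 5 of the 25006 genes counted. They were chosen by name with their library-scaled counts (CPM) in these groups already known, so their levels and differences are given as a description and without a test. RNA of the left ventricle was sequenced as stranded poly(A) libraries from 11 mice, 1 library per mouse, to compare hearts with and without myeloid Vegfc in the naive state and after myocardial infarction (MI). The groups were naive control (Vegfc fl/fl, n = 2, libraries M44 and M45), naive Vegfc-deficient (Vegfc fl/fl ; LysMCre, n = 3, M149, M150 and M34), MI control (n = 3, M006, M38 and M40) and MI Vegfc-deficient (n = 3, M35, M900 and M913). MI hearts were collected 9 days after permanent ligation of the left coronary artery. LysMCre drives Cre from the Lyz2 locus in myeloid cells, so the cells that make globin are not its intended target. The genotype field gives the controls as Vegfc fl/fl, while the collection protocol gives them as LysMCre mice.

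Hemoglobin is a tetramer of alpha and beta chains with a heme group in each, and it carries oxygen in red cells. Its mRNA is made in erythroid precursors in the bone marrow and spleen and persists in reticulocytes, the youngest circulating red cells, after the nucleus is lost. The ventricle is not a site of adult red cell formation, and globin mRNA in extracts of solid organs can come from the blood held in them.

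Total counts ran from 10824989 to 26782728 per library, and a floor of 3 counts lay between 0.101 and 0.363 CPM, counting error only. Lyz2, the locus of the Cre insertion, went against the label of 1 library. Naive Vegfc-deficient M149 held 4565 CPM of it, more than the naive controls (2121 and 2282 CPM), while M150 and M34 held 72.5 and 245 CPM, so values are also given without M149. The MI Vegfc-deficient libraries all lay below the MI controls (4538 to 5380 CPM) but differed from each other, with 1392 CPM in M35, 203 CPM in M900 and 12.4 CPM in M913. Vegfc itself overlapped between genotypes in this whole tissue, at 25.1 to 34.7 CPM in naive control and 27.5 to 34.5 CPM in naive Vegfc-deficient hearts. After MI it was at 21.9 to 45.5 CPM in control and 22.4 to 29.4 CPM in Vegfc-deficient hearts. The summed CPM of 4 Y-linked genes was 152 to 195 in the 5 naive libraries and at most 1.84 in the 6 MI libraries, with Xist at 0.62 to 11.8 and at 188 to 403 CPM. Sex and MI cannot be told apart in any comparison of MI with naive hearts. The cardiomyocyte markers (6 of 6 genes) were lower after MI in both genotypes, with a summed level of 57488 to 76729 CPM in naive and 1876 to 17060 CPM in MI libraries.

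The promoters of these genes are shown because the 4 globins moved together, while the alpha pair did not stay in a fixed proportion in every mouse. Each run below is the 120 bases before the RefSeq start site (GRCm38.p6), with capitals marking the GATA core (GATAA), the CACCC box, the CCAAT box and the TATA-like letters ATATAA on either strand. GENCODE M21 begins Hba-a1, Hbb-bs, Hbb-bt and Alas2 further upstream, so parts of these runs lie in its first exons.
Hba-a1, chr11:32283552-32283671, plus strand: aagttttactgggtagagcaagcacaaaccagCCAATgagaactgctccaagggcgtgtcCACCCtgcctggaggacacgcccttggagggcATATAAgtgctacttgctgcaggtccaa
Hba-a2, chr11:32296372-32296491, plus strand: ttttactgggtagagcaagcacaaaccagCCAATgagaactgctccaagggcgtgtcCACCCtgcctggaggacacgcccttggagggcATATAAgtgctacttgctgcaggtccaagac
Hbb-bs, chr7:103827929-103828048, minus strand: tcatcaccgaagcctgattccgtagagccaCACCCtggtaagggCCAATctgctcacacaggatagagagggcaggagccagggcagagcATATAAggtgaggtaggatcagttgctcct
Hbb-bt, chr7:103813924-103814043, minus strand: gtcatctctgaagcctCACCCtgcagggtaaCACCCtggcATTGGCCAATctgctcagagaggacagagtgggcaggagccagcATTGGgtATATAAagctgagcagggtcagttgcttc
Alas2, chrX:150547297-150547416, plus strand: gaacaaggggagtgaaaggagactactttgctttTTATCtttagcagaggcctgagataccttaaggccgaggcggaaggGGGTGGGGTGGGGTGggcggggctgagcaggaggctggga

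All 4 globin promoters held a CACCC box, a CCAAT box and the ATATAA letters within these 120 bases. Alas2 held the CACCC letters at 3 places and the GATA core once, as AGATAA, each on the reverse strand, but no CCAAT box and no ATATAA. In windows of the same length from 32851 RefSeq promoters, the CACCC box was found in 31.7%, the CCAAT box in 21.3%, the ATATAA letters in 4.47%, the GATA core in 10.5% and its longer form AGATAA, which contains the core, in 4.36%, counted on both strands. These matches are letters only and show no binding. The RefSeq promoter windows of Hba-a1 and Hba-a2, shifted by 3 bases, were identical at 297 of 297 aligned positions. Those of Hbb-bs and Hbb-bt were identical at 168 of 299 (56.2%, without gaps).

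The paralogs are also nearly identical within the message. The coding sequences of Hba-a1 and Hba-a2 differed at 1 of 426 bases, C381T, and those of Hbb-bs and Hbb-bt at 1 of 441, C417T (first gene's base, position from the A of the start codon, second gene's base, stop codon left out, GENCODE M21). The alpha pair is shown around its single coding difference, which is in capitals, since the split of counts between both genes is described further on.
Hba-a1, coding bases 361 to 401: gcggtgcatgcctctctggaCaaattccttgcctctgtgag
Hba-a2, coding bases 361 to 401: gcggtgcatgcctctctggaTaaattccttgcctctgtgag
Of the 50-base stretches of the Hba-a1 transcript, 92.3% also occurred in Hba-a2 sequence (its transcripts or promoter window), and of those of Hba-a2, 86.9% occurred in Hba-a1. For 100-base stretches the shares were 75.7% and 74.5%. Hbb-bs shared 65.8% of its 50-base stretches with Hbb-bt, Hbb-bt shared 58.3% with Hbb-bs, and Alas2 shared none with any other gene. The counts of each alpha gene, and to a lesser degree of each beta gene, therefore rest on few bases that tell the copies apart. Read length and the handling of reads that map to both copies are not given in the sources used here, and sums over each pair do not depend on how such reads were split, but would miss any that were left out.

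Hbb-bs (ENSMUSG00000052305, chromosome 7, 103826534 to 103828096) is the adult beta-globin gene with the higher counts in these hearts. Its level was 703 and 1591 CPM in naive control libraries M44 and M45, and 1319, 2993 and 2792 CPM in the Vegfc-deficient ones, M149, M150 and M34. MI control hearts held 944 (M006), 762 (M38) and 555 CPM (M40), and MI Vegfc-deficient hearts held 421 (M35), 210 (M900) and 244 CPM (M913). The highest level, in M150, was seen in a naive Vegfc-deficient heart and the lowest, in M900, in an MI Vegfc-deficient heart. The 3 MI Vegfc-deficient libraries lay below every other library, and the other groups overlapped with a neighbor.

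Hbb-bt (ENSMUSG00000073940, chromosome 7, 103812524 to 103813996) is the second adult beta-globin gene. It was at 121 and 286 CPM in naive control hearts, at 244, 556 and 339 CPM in naive Vegfc-deficient hearts, at 156, 120 and 94.1 CPM in MI control hearts and at 75.7, 32.8 and 21.2 CPM in MI Vegfc-deficient hearts, libraries in the order above. As for Hbb-bs, M150 was highest and all 3 MI Vegfc-deficient libraries lay below the rest. The lowest library was M913 rather than M900.

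Hba-a1 (ENSMUSG00000069919, chromosome 11, 32283511 to 32284465) encodes an adult alpha chain. It was at 199 and 402 CPM in naive control hearts and at 234, 603 and 472 CPM in naive Vegfc-deficient hearts. After MI it was at 145, 166 and 108 CPM in control hearts and at 135, 46.8 and 43.4 CPM in Vegfc-deficient hearts. Every naive library lay above every MI library, and M35 (135 CPM) fell within the MI control range.

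Hba-a2 (ENSMUSG00000069917, chromosome 11, 32296489 to 32297298) is the second adult alpha-globin gene. It was at 43.6 and 103 CPM in naive control hearts and at 58.8, 143 and 119 CPM in naive Vegfc-deficient hearts. MI control hearts held 104 (M006), 0.64 (M38) and 27.2 CPM (M40), and MI Vegfc-deficient hearts held 0.12 (M35), 11.8 (M900) and 10.3 CPM (M913). M38 and M35 lay far below all other libraries in Hba-a2, but not in the other 4 genes. The MI control libraries differed from each other by 163-fold and the MI Vegfc-deficient libraries by 100.3-fold, against at most 2.44-fold within either naive group.

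Alas2 (ENSMUSG00000025270, chromosome X, 150547375 to 150570638) encodes the erythroid form of the enzyme that joins glycine to succinyl-CoA. It was at 24.7 and 54.0 CPM in naive control hearts, at 36.3, 87.8 and 52.6 CPM in naive Vegfc-deficient hearts, at 25.4, 16.9 and 19.1 CPM in MI control hearts and at 21.9, 7.59 and 5.92 CPM in MI Vegfc-deficient hearts. MI control M006 lay just above naive control M44, and MI Vegfc-deficient M35 lay within the MI control range. M900 and M913 stood below all other libraries.

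**Figure D1:**
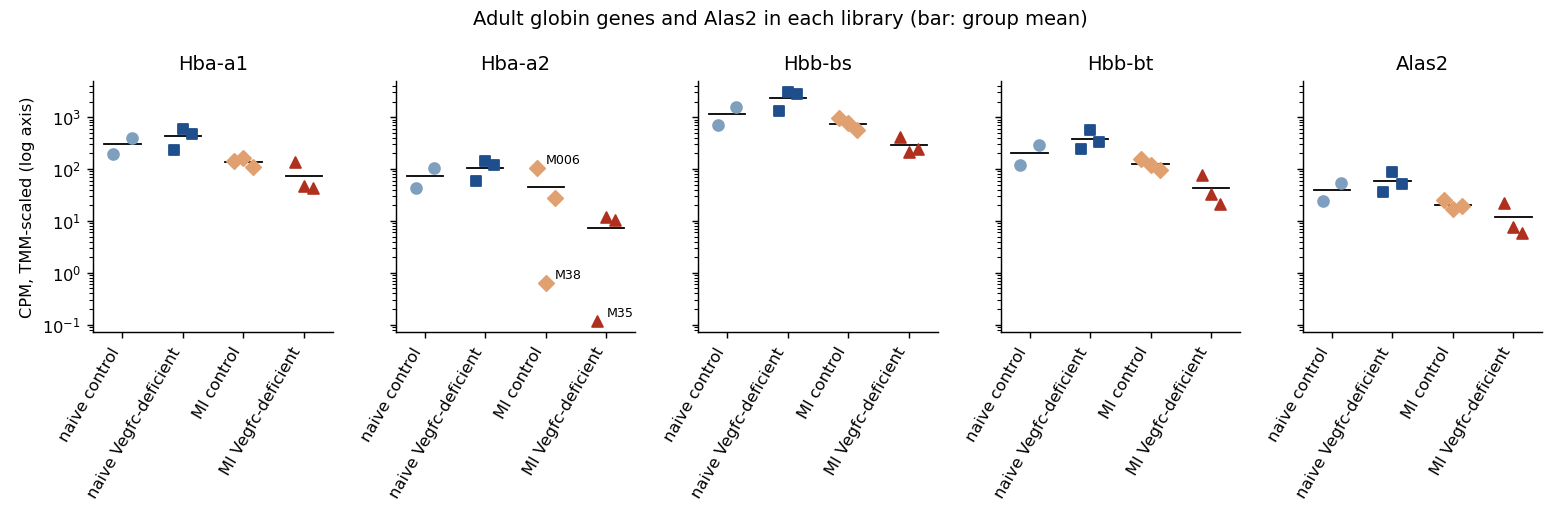
Level of each gene in every library (TMM-scaled CPM, logarithmic y axis), with 1 point per mouse, color and marker by group and a bar at the group mean. The 4 globins and Alas2 share 1 order of group means, and Hba-a2 is near 0 in M38 (0.64 CPM) and M35 (0.12 CPM).

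Per length of exon (RPKM), Hbb-bs was the highest in all groups. Its mean was 1494 ± 818 RPKM in naive control hearts (SD, n = 2), 3083 ± 1190 in naive Vegfc-deficient hearts (SD, n = 3), 982 ± 253 in MI control hearts (SD, n = 3) and 380 ± 148 in MI Vegfc-deficient hearts (SD, n = 3). Hba-a1 and Hbb-bt came next. Their means were 370 and 290 RPKM in naive control hearts, 538 and 540 RPKM in naive Vegfc-deficient hearts, 172 and 175 RPKM in MI control hearts and 92.3 and 61.5 RPKM in MI Vegfc-deficient hearts, so they were close in only 2 of the 4 groups. Hba-a2 followed at 110, 160, 66.1 and 11.1 RPKM in the 4 groups in the same order, and Alas2 was lowest at 16.4, 24.5, 8.50 and 4.91 RPKM. Shared sequence limits the comparison among the paralogs.

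For each of the 5 genes, the group means ran in the same order, from naive Vegfc-deficient through naive control and MI control to MI Vegfc-deficient. Neighbors in this order were often not separated. The naive groups overlapped for all 5 genes, naive control and MI control overlapped for all but Hba-a1, and the MI groups overlapped for all but Hbb-bs and Hbb-bt. In these whole-tissue extracts, fewer red cells and less globin mRNA per cell cannot be told apart. The 5 genes together took 0.0361% to 0.335% of a library's counts, and the intervals below and these shares cover counting error only.

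The question of what changed with MI was first taken up in control mice. Fitted log2 fold changes (MI against naive, ± SE) were -1.11 ± 0.53 for Hba-a1, -0.74 ± 1.36 for Hba-a2, -0.61 ± 0.46 for Hbb-bs, -0.73 ± 0.54 for Hbb-bt and -0.95 ± 0.55 for Alas2. The median of the 5 was -0.74, beside 0.13 for all 14779 genes tested. Groups did not overlap for 1 gene of the 5, Hba-a1, with MI below, as was the case for 33% of all genes, and 50.4% of all genes had an adjusted p under 0.05. The difference depended on M45, and that of Hba-a2 also on M006, without which it was -2.42. Without M45 the median was 0.013, and Hbb-bs and Hbb-bt had log2 fold changes of 0.10 and 0.022. M44, the remaining naive control, lay at 703 CPM of Hbb-bs, inside the MI control range.

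In Vegfc-deficient mice, the difference between MI and naive hearts was wider. Log2 fold changes were -2.54 ± 0.51 for Hba-a1, -3.83 ± 1.39 for Hba-a2, -3.02 ± 0.45 for Hbb-bs, -3.14 ± 0.53 for Hbb-bt and -2.33 ± 0.52 for Alas2 (± SE). These correspond to levels 5.83-fold, 14.2-fold, 8.12-fold, 8.79-fold and 5.03-fold lower after MI. The median was -3.02, beside 0.097 for all genes. All 5 genes had every MI library below every naive library, as did 30.7% of all genes, and 57.6% of all genes had an adjusted p under 0.05. Without M149, whose Lyz2 level went against its label and whose Hbb-bs level (1319 CPM) was the lowest of its group, the log2 fold changes were -2.84 for Hba-a1, -3.31 for Hbb-bs, -3.37 for Hbb-bt and -2.59 for Alas2. Without M35, those of Hba-a1, Hbb-bt and Alas2 were -3.27, -3.81 and -3.12, and that of Hba-a2 was -3.27. Smaller values for Hba-a1, Hbb-bt and Alas2 were found without M913 (-2.27, -2.82 and -2.01) and without M150 (-2.24, -2.76 and -1.93). Pooled alpha counts (Hba-a1 plus Hba-a2) had a log2 fold change of -2.72 ± 0.48 and pooled beta counts one of -3.04 ± 0.46.

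Between genotypes, the signs were opposite in naive and MI hearts. In naive hearts all 5 genes had positive log2 fold changes (Vegfc-deficient against control), from 0.54 ± 0.55 for Hba-a1 to 1.05 ± 0.48 for Hbb-bs, with a median of 0.58, and the groups overlapped for every gene. The groups were apart, with Vegfc-deficient libraries above, for 12.3% of all genes. The size depended on M45, without which the median was 1.29 and Hbb-bs stood at 1.75, and on M44, without which the median was 0.12. Without M149 the values were 0.84 for Hba-a1, 1.33 for Hbb-bs, 1.136 for Hbb-bt and 0.83 for Alas2.

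After MI all 5 genes had negative log2 fold changes between genotypes, with a median of -1.37 beside -0.0073 for all genes. They were -0.90 ± 0.49 for Hba-a1, -2.55 ± 1.32 for Hba-a2, -1.37 ± 0.43 for Hbb-bs, -1.51 ± 0.50 for Hbb-bt and -0.80 ± 0.50 for Alas2. Hbb-bs and Hbb-bt had all Vegfc-deficient libraries below all controls, as did 6.12% of all genes, while Hba-a1 and Alas2 overlapped through M35 and Hba-a2 through M38. Without M35, the library of its group with the most Lyz2, the values for Hba-a1, Hbb-bt and Alas2 were -1.63, -2.19 and -1.59. That of Hba-a2 was then -1.99. Without M900, Hba-a1, Hbb-bt and Alas2 had smaller values of -0.62, -1.31 and -0.53, and without M913 -0.61, -1.17 and -0.46. Hba-a2 had values of -2.99 without M900 and -2.85 without M913. Without M006, the value for Hba-a2 was -0.88. Between the genotypes, 0 of 14779 genes passed an adjusted p of 0.05 by edgeR in naive hearts (499 at an unadjusted p under 0.05, 14 by DESeq2) and 0 in MI hearts (1173 unadjusted, 51 by DESeq2). Without M149, edgeR called 17 genes in naive hearts, 0 in MI hearts and 1 in the interaction of MI and genotype.

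**Figure D2:**
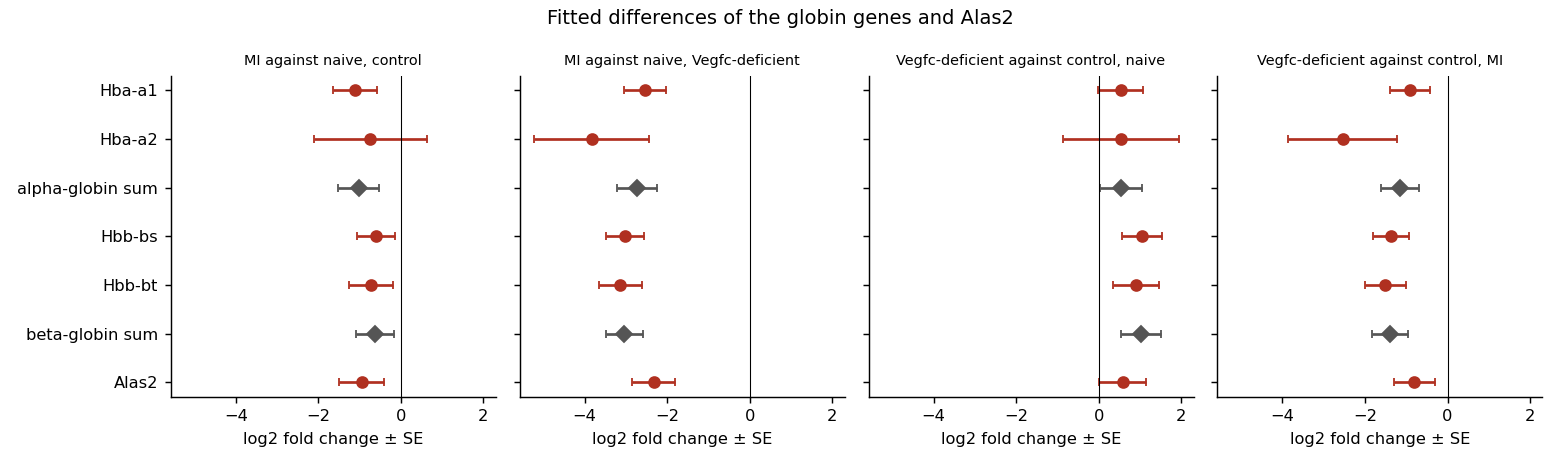
Log2 fold change ± SE (bars) from the edgeR fit of 11 libraries for each gene (circles) and for counts pooled over the alpha or the beta pair (diamonds), in 4 comparisons on 1 x axis. In Vegfc-deficient hearts all points lie between -3.83 and -2.33, and the bars of Hba-a2 are the widest (SE 1.36 in control hearts).

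Within a library, the split between the alpha paralogs was alike in most mice over a wide range of globin levels. Hba-a2 took 18.0% to 20.4% of alpha counts in 8 of the 11 libraries, although their pooled alpha level ran from 53.7 CPM in M913 to 747 CPM in M150. In MI control M006 it took 41.9% (exact 95% interval 40.5% to 43.3%). In MI control M38 it took 0.385% (19 of 4929 counts, 0.232% to 0.601%), and in MI Vegfc-deficient M35 0.0871% (2 of 2295 counts, 0.0106% to 0.314%). The libraries thus fell at 3 levels, and all 3 that stood apart were MI hearts, from both genotypes.

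Pooled alpha counts in those 3 hearts were in keeping with their beta counts. The ratio of alpha to beta counts was 0.189 in M38, 0.227 in M006 and 0.271 in M35, within the range of 0.188 to 0.294 seen over the other libraries. In Hba-a2, M38 and M35 lay below the 9 other libraries by a gap of 3.79 on the log2 CPM scale. It was the widest such gap of 14779 genes, and the next was Akr1e1 with 1.125. M38 and M35 were singled out by their Hba-a2 level, so the first place of Hba-a2 is a description and no test. Nprl3, the alpha-globin neighbor whose introns hold the enhancers of the cluster, was at 14.1 CPM in M38 and 18.3 CPM in M35, beside 17.1 to 23.1 CPM in naive hearts. Whether these hearts differ in the alpha-globin locus itself was not tested.

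The beta pair showed a split of its own, in other mice. Hbb-bt took 13.5% to 15.7% of beta counts in 9 libraries, 10.8% in naive Vegfc-deficient M34 (exact 95% interval 10.5% to 11.1%) and 8.004% in MI Vegfc-deficient M913 (7.35% to 8.70%). Neither M34 nor M913 was among the 3 libraries with an unusual alpha split. Both carried the Vegfc-deficient label, and the other libraries of their groups did not share the low value.

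**Figure D3:**
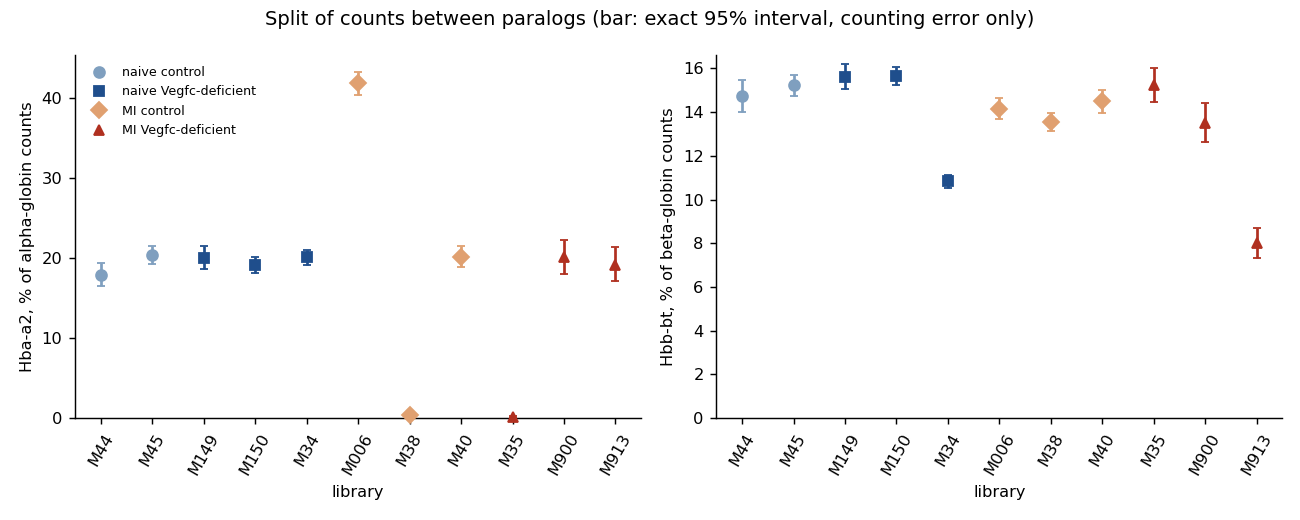
Percent of alpha-globin counts on Hba-a2 (left) and of beta-globin counts on Hbb-bt (right) in each library, with exact 95% intervals for counting error and color and marker by group. M006 (41.9%), M38 (0.385%) and M35 (0.0871%) stand apart on the left, and M34 (10.8%) and M913 (8.004%) on the right.

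Alas2 and globin counts kept a looser proportion. There were 14.1 to 34.6 Alas2 counts per 1000 globin counts, lowest in M34, which was rich in globin (3721 CPM over the 4 genes), and highest in M35. Embryonic globins stayed at the floor of detection. Hba-x, Hbb-y, Hbb-bh1 and Hbb-bh2 did not exceed 3 counts in any library.

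Other genes of the red cell, taken from 3 lists, were used to see how far the pattern extended. Slc4a1 (the anion exchanger band 3), a defining membrane protein, reached at most 0.85 CPM and did not pass the filter on low counts. Gata1 and Klf1, the transcription factors of erythroid precursors, reached at most 0.33 and 0.49 CPM, and Car1 was at 0 in all but 1 library. Globin mRNA was thus found with no more than trace levels of these defining genes. Ahsp was not matched by symbol.

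Of the 45 genes on these lists besides the 5 described, 30 were tested. In control mice 17 were called between MI and naive hearts (4 higher and 13 lower, adjusted p under 0.05 by edgeR), to be read against 50.4% of all genes, 26.3% higher and 24.1% lower. In Vegfc-deficient mice 19 were called (6 higher and 13 lower), beside 57.6% of all genes, 30% higher and 27.7% lower. Between genotypes 0 were called in naive or MI hearts (1 and 2 at an unadjusted p under 0.05) and 0 in the interaction of MI and genotype (3 unadjusted), and DESeq2 also called 0 in each. The median log2 fold change of the membrane list was -2.30 in control and -1.42 in Vegfc-deficient mice, that of the regulators -0.17 and 0.22, and that of the cytosolic list -0.12 and -0.40.

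Among the membrane genes that fell, Rhd was not lowest in the hearts poorest in globin. Rhd, which encodes a Rh blood group protein, was at 15.7 to 27.9 CPM in naive and at 1.137 to 3.65 CPM in MI libraries, with log2 fold changes of -3.13 in control and -3.01 in Vegfc-deficient mice (edgeR adjusted p = 0.00072 and 0.00039). It was at 1.34 CPM in M900 and 2.73 CPM in M913, the hearts poorest in globin, and lowest in MI control M40 (1.137 CPM). Icam4, an adhesion molecule of red cells, was at 0.126 CPM in M900 and 0.147 CPM in M40, its lowest libraries. These values lie at or just above the floor of 3 counts (0.126 CPM in M900 and 0.110 CPM in M40), so their order is not resolved. Ank1, Sptb and Tmod1 fell as well in both genotypes. Of 11 membrane genes tested, 8 fell and 1 rose in control mice, beside 24.1% and 26.3% of all genes. In Vegfc-deficient mice 8 fell and 3 rose, beside 27.7% and 30%. Ermap, at most 0.484 CPM in naive hearts, rose by 3.18 and 2.36 (edgeR adjusted p = 0.015 and 0.022). Dmtn and Add2 rose by 0.88 and 2.83 in Vegfc-deficient mice (edgeR adjusted p = 0.030 and 0.028). The part of the loss of cardiomyocyte markers in these changes was not tested. Epor, the erythropoietin receptor, stayed at 2.55 to 4.64 CPM in all libraries (log2 fold changes -0.17 and 0.22, edgeR adjusted p = 0.666 and 0.523), and Tfr2 rose by 2.84 and 3.63 from at most 0.363 CPM in naive hearts (edgeR adjusted p = 0.0052 and 0.00077).

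Among the cytosolic genes, Bpgm followed the globins closely. It encodes bisphosphoglycerate mutase, which makes the 2,3-bisphosphoglycerate that lowers the oxygen affinity of hemoglobin. Its level was 48.0 and 71.1 CPM in naive control hearts and 68.3, 83.4 and 79.9 CPM in naive Vegfc-deficient hearts. After MI it was at 41.1, 37.5 and 37.5 CPM in control hearts and at 30.3, 27.8 and 29.4 CPM in Vegfc-deficient hearts. As for Hbb-bs and Hbb-bt, M150 was highest, and M35, M900 and M913 lay below every other library. It fell by 0.62 in control mice (SE 0.16, edgeR adjusted p = 0.0099) and by 1.40 in Vegfc-deficient mice (SE 0.15, edgeR adjusted p = 7.07e-05) on the log2 scale. The control value was -0.31 without M45 (edgeR adjusted p = 0.177). Between MI genotypes the log2 fold change was -0.41 (edgeR adjusted p = 0.584).

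Ranked by Pearson r over the 11 libraries against the mean log2 CPM of the 5 genes, the genes most like them among 14774 were Mrgbp (r = 0.963), Bpgm (0.958), Cfap36, Rpl36al, Rpl35a, Cinp, 2510002D24Rik, Med6, Rpain and Fcf1 (0.943). This measure is pulled by Hba-a2 in M38 and M35. With the 4 globin genes summed, a choice made after that pattern had been seen, Bpgm ranked 9 (r = 0.942) and was the 1 gene of 10 common to both lists. After group means were subtracted, the first 5 were Pcgf6, Ctnnal1, Taz, Prkce and Pcdhb10 (r = 0.952 to 0.961). These libraries share their groups, depth and loss of cardiomyocyte RNA, and no test was applied.

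**Figure D4:**
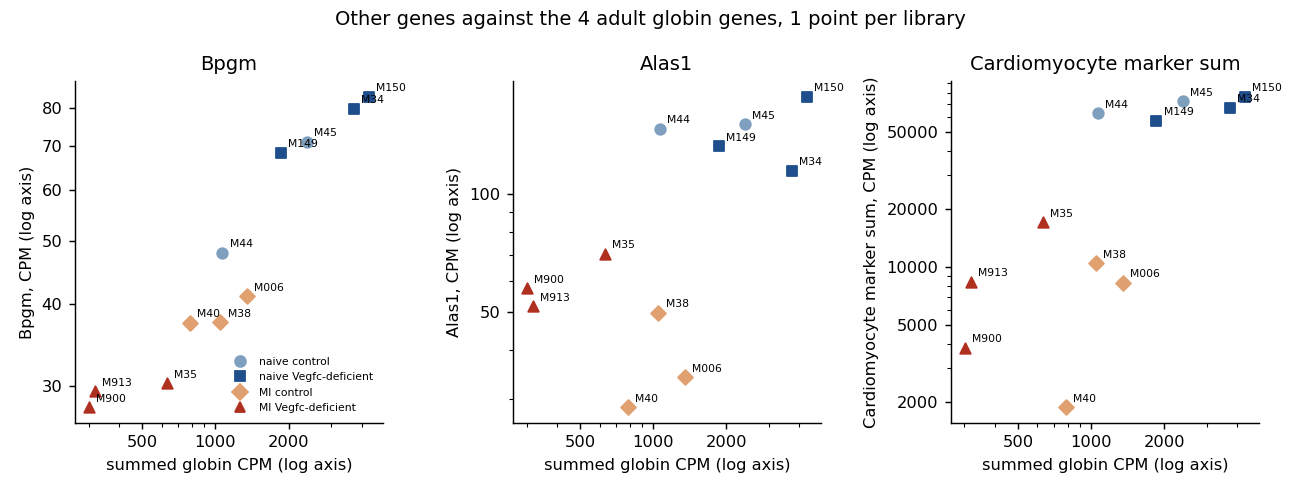
Bpgm, Alas1 and the summed cardiomyocyte markers against the summed CPM of the 4 adult globin genes, all on logarithmic axes, with 1 labelled point per library and color and marker by group. Bpgm (r = 0.942 with globins summed and Alas2) rises with the globins across the groups, while Alas1 and the cardiomyocyte markers separate naive from MI hearts.

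Mb encodes myoglobin, the oxygen-binding globin of muscle, and was at 35053 to 42194 CPM in naive and 927 to 7743 CPM in MI libraries. The log2 fold change was -2.94 in control and -3.01 in Vegfc-deficient mice (edgeR adjusted p = 0.012 and 0.0068). Its lowest library was M40 (927 CPM), while Hba-a1, Hbb-bs and Hbb-bt were lowest in M900 or M913 and Hba-a2 in M35. Cygb (cytoglobin), which fibroblasts express, rose by 0.74 and 1.06 (edgeR adjusted p = 0.022 and 0.0016). Of the 9 globin family genes besides the adult 4, only Mb and Cygb passed the filter.

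Most other genes of heme synthesis fell after MI in both genotypes. Of 10 heme synthesis genes other than Alas2, 8 fell and 0 rose in control mice and 8 fell and 1 rose in Vegfc-deficient mice, with medians of -1.144 and -1.19. Over all genes, 24.1% fell and 26.3% rose in control and 27.7% fell and 30% rose in Vegfc-deficient mice. Cpox was not called in either genotype (edgeR adjusted p = 0.27 and 0.0604), and Ppox rose by 0.62 in Vegfc-deficient mice (edgeR adjusted p = 0.047) and was not called in control mice (edgeR adjusted p = 0.292). Alas1, the form of the enzyme used outside red cells, was at 115 to 178 CPM in naive and at 28.7 to 70.6 CPM in MI libraries, and fell by 1.99 and 1.24 (edgeR adjusted p = 0.00033 and 0.0012). Its MI Vegfc-deficient libraries (51.8 to 70.6 CPM) lay above the MI control libraries (28.7 to 49.97 CPM), with a narrow gap. Neither Alas1 nor any other of the 10 genes was called between the MI genotypes, where edgeR called 0 of 14779 genes. The group means of Alas2, given without a test, ran in the other order. Fech, which inserts iron into the ring, fell by 1.21 and 1.15 (edgeR adjusted p = 0.00025 and 9.0e-05).

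Among 11 genes of hemoglobin and heme clearance, 2 rose and 2 fell in control mice and 4 rose and 3 fell in Vegfc-deficient mice, beside 50.4% and 57.6% of all genes called in either direction. These counts do not set the list apart from all genes. Hmox1, the enzyme that opens the heme ring, was at 31.1 to 83.5 CPM in naive, 81.2 to 144 CPM in MI control and 124 to 199 CPM in MI Vegfc-deficient hearts, and rose by 1.70 in Vegfc-deficient mice (edgeR adjusted p = 0.0030), with a value of 0.88 in control mice (edgeR adjusted p = 0.097). Hp (haptoglobin, which binds free hemoglobin) rose by 3.21 and 2.83 (edgeR adjusted p = 0.0090 and 0.0045). Cd163, the macrophage receptor for that complex, fell by 2.00 and 1.74 (edgeR adjusted p = 0.011 and 0.013). Slc40a1, the iron exporter, had values of 1.16 and 1.126 that did not pass (edgeR adjusted p = 0.092 and 0.056).

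Markers of other blood cells ran with the globins in some comparisons and not in others. The summed 12 platelet markers were at 130 to 155 CPM in naive and 52.1 to 79.5 CPM in MI libraries, most of it Pf4. The list as a whole did not fall with that sum. Of 6 platelet markers tested, 3 rose and 1, Pf4, fell in control mice, beside 26.3% and 24.1% of all genes. In Vegfc-deficient mice 1 rose and 2 fell, beside 30% and 27.7%. By the sum, MI Vegfc-deficient hearts (70.7 to 79.5 CPM) lay above MI control hearts (52.1 to 67.8 CPM), with 0 of the 6 genes called between them. In naive hearts, where the mean globin levels were higher in Vegfc-deficient mice, the white cell marker sums were higher there too, with no overlap. Of all single genes, 12.3% were apart in that direction. None of the tested white cell markers (9 neutrophil, 5 T cell and 5 B cell genes) was called between the naive groups. The summed 10 neutrophil markers were at 77.5 to 115 CPM in naive Vegfc-deficient and 21.2 to 38.2 CPM in naive control hearts, the T cell markers at 7.45 to 11.4 and 4.01 to 4.53 CPM, and the B cell markers at 12.95 to 19.6 and 6.065 to 12.1 CPM. The part of these cells in the naive difference was not tested. After MI the neutrophil markers were at 51.0 to 390 CPM in control and 39.0 to 233 CPM in Vegfc-deficient hearts, the T cell markers at 11.4 to 126 and 14.9 to 22.4 CPM, and the B cell markers at 10.6 to 16.6 and 15.6 to 32.4 CPM, all overlapping. Lung markers did not exceed 2.55 CPM, with Sftpb and Sftpa1 at or under 3 counts everywhere. The amount of blood left in each heart at collection was not recorded in the sources used here, and its part in the globin differences was not tested.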

How the data were processed

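Per the labels and the study's methods, left ventricular RNA was made into TruSeq Stranded mRNA libraries and sequenced. The authors deposited whole-number read counts for 25006 Ensembl genes per library, not normalized. The submitters' processing notes name cutadapt 1.13, STAR, HTSeq 0.6.1p1, DESeq2 1.14.1 and mm10, without roles. Identifiers were matched to GENCODE M21 (GRCm38, 24991 matched). The 5 genes and all lists were chosen with earlier results of these data known. Besides the 5, genes of the lists called in at least 1 comparison and a few defining genes could be named, with the 10 and 5 genes of highest likeness (log2 CPM, prior count 2).

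Counts were filtered by edgeR 4.0.16 (filterByExpr by group, 14779 genes kept, all 5 genes among them), scaled by TMM and fitted in 1 quasi-likelihood model of 11 libraries, with limma 3.58.1 and R 4.3.3. Adjusted p-values are Benjamini-Hochberg over all genes tested, with a threshold of 0.05. The labels do not say whether libraries came from separate litters or batches, and p-values measure the spread between mice. RPKM used exon-union lengths. Shares have exact (Clopper-Pearson) 95% intervals, counting error only. Alternatives were DESeq2 1.42.0 (size factors, Wald test), library totals, scaling without the 5 genes, other filters, compared groups alone, a threshold of 0.01 and each library left out. Pooled paralogs were added after the data were seen. The fit was tested on simulated counts with known changes. Promoter sequences are from RefSeq (GRCm38.p6) and matched all 5 genes. Some listed genes are not reported here.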

Additional observations from a re-analysis of the deposited data

How the results depend on the processing

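Of 71 summary values under settings that kept all libraries, 69 did not change their call or direction or move beyond the spread. With a threshold of 0.01, 11 red cell genes were called in control and 11 in Vegfc-deficient mice between MI and naive hearts, in place of 17 and 19, by construction of the setting. With each library left out in turn, the median log2 fold change of the 5 genes ran from -1.23 to 0.013 (MI against naive, control), from -3.31 to -2.76 (MI against naive, Vegfc-deficient), from 0.12 to 1.29 (genotype, naive) and from -1.73 to -0.88 (genotype, MI). The count of red cell genes called ran from 11 (without M45) to 18 in control and from 13 to 21 in Vegfc-deficient mice, and it was 0 throughout for genotype and interaction. Without M149 the counts were 17 and 15. With library totals and no TMM, the median of all genes between MI and naive moved from 0.13 to 0.57 in control and from 0.097 to 0.59 in Vegfc-deficient mice, and that of the 5 genes relative to it was -0.84 and -3.10, beside -0.87 and -3.12 with TMM. Under that setting Hmox2 and Blvra turned to 0.056 and 0.024 in Vegfc-deficient mice, and Bpgm in control mice was at -0.17 (adjusted p = 0.351 by edgeR). Bpgm kept its call in Vegfc-deficient mice under all 19 settings tried. No paired analysis was possible because the groups share no replicate numbers. With 2 naive control libraries, differences in control mice rest on M44 and M45, which differed by 2.26-fold in Hbb-bs.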

Other observations

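Among neighbors of the alpha-globin cluster on chromosome 11, Rhbdf1 rose after MI in both genotypes (log2 fold changes 0.89 and 0.91, edgeR adjusted p = 0.012 and 0.0049). Snrnp25 had a value of -0.30 in control mice (edgeR adjusted p = 0.293) and fell by 1.09 in Vegfc-deficient mice (edgeR adjusted p = 0.0014). Its fall in Vegfc-deficient mice was the largest change on the list of 5 genes. Polr3k, on the same list but located on chromosome 2, fell by 0.48 in Vegfc-deficient mice (edgeR adjusted p = 0.0077). Of the list, 1 gene rose and 1 fell in control mice, beside 26.3% and 24.1% of all genes. In Vegfc-deficient mice 1 rose and 2 fell, beside 30% and 27.7%. Nprl3 fell in control mice (log2 fold change -0.49, edgeR adjusted p = 0.014), and its value in Vegfc-deficient mice was -0.075 (edgeR adjusted p = 0.631). The difference between both responses was 0.42 on the log2 scale (edgeR interaction, adjusted p = 0.6004).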
